A study of Mus musculus with 3 samples.

Results

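CC chemokines are small secreted proteins that attract leukocytes, and the 9 genes described here are 6 of these ligands (Ccl2, Ccl3, Ccl4, Ccl5, Ccl7 and Ccl12) and 3 of their receptors (Ccr1, Ccr2 and Ccr7). They were chosen by gene symbol and not by a rule on their measured values, though with earlier results of these data known. They are 9 of the 32247 symbols in the deposited matrix, and all 9 were detected. The ligands carry adjacent cysteines near the start of the mature protein and bind receptors of the G protein-coupled class, which signal through inhibitory G proteins and turn a gradient of ligand into directed movement. Ccr2 is known as the receptor by which monocytes leave the bone marrow and enter tissue, Ccr7 as the receptor that leads dendritic cells and lymphocytes to lymph nodes, and Ccr1 as a receptor of inflammatory ligands on myeloid cells. In the pregnant uterus, leukocytes of the decidua, the transformed stroma around the implanted conceptus, are mostly natural killer (NK) cells and macrophages.

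The series set out to describe the cells of the mouse uterus in early pregnancy. Its single-cell samples are whole uteri of females kept on normal chow to 8 weeks of age, mated, dissected at pregnancy day 7.5, dissociated with trypsin and run on a droplet chip with 3′ chemistry. 1 library, whose labels name no genotype, strain or number of animals, was used. A Prl8a2icre/+ Sun1-GFPLsL/+ uterus and a Sun1-GFPLsL/+ uterus were not analysed here. Because 1 library gives no replicates and cells are not replicates, no test was made, and every interval is an exact 95% interval that covers counting error only.

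The library held 16848794 unique molecular identifiers (UMIs, each counting 1 captured transcript end) in 2775 barcodes, of which 1812 cells with a median of 4509.5 UMIs were kept. Of 21 clusters 18 were given a class name from marker genes and 159 cells in 3 clusters stayed unnamed. The immune classes were mononuclear phagocyte-like cells (269), NK and innate lymphoid-like cells (311), T cell-like cells (42) and B cell-like cells (23). The others were epithelium-like (326 cells), undifferentiated stroma-like (416), decidual stroma-like (77), mesothelium-like (88), endothelium-like (66) and pericyte and smooth muscle-like cells (35). The 645 immune cells were clustered again among themselves, without the chemokine genes, into 12 sub-clusters. Names may differ from the authors' own. A level is given in CPM, the gene's UMIs scaled to a common total of all UMIs summed over the cells of a group.

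The 6 ligand genes lie on mouse chromosome 11 in a pair of clusters, and the codons for the adjacent cysteines are what they share. Ccl2 and Ccl7 were 8.26 kb apart and Ccl7 and Ccl12 54.3 kb, while Ccl3 lay 13.2 kb from Ccl4 and 117 kb from Ccl5 (GENCODE M21, GRCm38). In that annotation Ccl2 spans chr11:82035571-82037453, Ccl7 chr11:82045712-82047525, Ccl12 chr11:82101845-82103400 and Ccl4 chr11:83662584-83664683, all on the plus strand, and Ccl5 spans chr11:83525778-83530518 and Ccl3 chr11:83647844-83649355 on the minus strand. Ccr7 is on chromosome 11 too (chr11:99144196-99155077, minus strand). Ccr1 (chr9:123962124-123968692, minus strand) and Ccr2 (chr9:124101950-124113557, plus strand) lie 133 kb apart. To show the shared feature of the family, 30 coding bases of 5 ligands are given from the GENCODE transcripts, with the codons of the 2 adjacent cysteines in capitals.
Ccl2: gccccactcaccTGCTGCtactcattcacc
Ccl7: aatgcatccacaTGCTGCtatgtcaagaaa
Ccl12: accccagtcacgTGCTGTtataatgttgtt
Ccl4: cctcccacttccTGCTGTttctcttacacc
Ccl5: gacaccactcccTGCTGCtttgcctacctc
The first cysteine was codon 33 or 34 in these genes, and the bases around the pair differed between them. None of the 9 genes shared a stretch of 50 bases, within the last 500 bases of its transcripts, with another gene's transcripts. Ccl2 alone overlapped another annotated gene, Gm17268 on the opposite strand, and the labels and headers do not say whether the counting used strand.

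Promoters are shown for 3 members whose transcripts lay almost wholly in phagocytes, from RefSeq on GRCm38.p6, as the 250 bases before the gene start in RefSeq. The promoter table matched 4 of the 9 members (Ccl3, Ccl12, Ccr1 and Ccr2). Capitals mark matches to 4 motifs searched on both strands. They were GAGGAA, the core bound by PU.1, a factor of myeloid cells, then TATAAA of the TATA box, then TGANTCA, bound by AP-1, and the NF-kappaB motif.
Ccl3 (chr11:83649379-83649628, minus strand): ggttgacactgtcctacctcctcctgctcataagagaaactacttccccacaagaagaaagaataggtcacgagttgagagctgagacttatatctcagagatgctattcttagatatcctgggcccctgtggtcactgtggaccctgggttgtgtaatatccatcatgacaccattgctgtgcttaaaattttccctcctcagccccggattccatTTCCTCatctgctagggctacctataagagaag
Ccl12 (chr11:82101595-82101844, plus strand): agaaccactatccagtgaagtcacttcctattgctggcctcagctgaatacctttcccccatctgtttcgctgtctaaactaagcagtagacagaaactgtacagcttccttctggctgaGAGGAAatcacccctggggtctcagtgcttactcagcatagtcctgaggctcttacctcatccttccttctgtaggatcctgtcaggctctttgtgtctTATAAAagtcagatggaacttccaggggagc
Ccr1 (chr9:123968693-123968942, minus strand): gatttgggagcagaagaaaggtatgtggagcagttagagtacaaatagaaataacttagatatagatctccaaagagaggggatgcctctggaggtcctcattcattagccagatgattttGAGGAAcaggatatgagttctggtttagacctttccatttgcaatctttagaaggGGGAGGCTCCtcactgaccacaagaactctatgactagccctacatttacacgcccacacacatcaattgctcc
GAGGAA was present in 3 of the 4 member promoters, against 23.3% of 32851 promoters of the same length. The Ccr1 promoter also held the NF-kappaB motif, which 7.25% of promoters held, and the Ccl12 promoter TATAAA, which 12.4% held. The Ccr2 window (chr9:124101933-124102182, plus strand), most of which lies inside the gene as GENCODE annotates it, held none of the 4 motifs, and TGANTCA, held by 6.75% of promoters, was in none of the 4. No match overlapped another, and a match describes letters only.

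Mononuclear phagocytes held most transcripts of each ligand but Ccl5, and of Ccr1 and Ccr7, while NK cells held most of those of Ccr2. Ccl5 was split between them, with 49.9% of its UMIs in phagocytes and 48.1% in NK cells. Of all ligand UMIs in kept cells 84.5% lay in phagocytes and 13.3% in NK cells, and of all receptor UMIs 42.8% lay in phagocytes and 51.3% in NK cells, where 1218 were Ccr2, 1 was Ccr1 and 3 were Ccr7. Phagocytes held 97.3% of Ccr1 and 83.4% of Ccr7 UMIs. All 9 members were 2-fold or more higher in phagocytes than in all other cells, against 11.2% of 12179 genes compared (those with at least 50 UMIs). The median log2 ratio of the 9 members was 6.78, and that of all genes compared was -0.47. The ratio was lowest for Ccr2, at 5.14 (4.67 to 5.66), and Ccl5, at 10.7 (9.40 to 12.2), and stood at 110 for Ccl2 (78.5 to 157), 87.7 for Ccl4 (79.5 to 96.9), 214 for Ccl3 (151 to 313) and 271 for Ccl7 (135 to 637). For Ccr7 it was 53.9 (40.4 to 72.9), and for Ccr1 and Ccl12 the other cells held 3 UMIs and 1 UMI. At 2000 UMIs a cell, the share of phagocytes with a UMI ran from 8.05% for Ccl7 and Ccl12 to 47.7% for Ccr2, against at most 0.352% of epithelial cells for any member. Among the other named non-immune classes the highest share was 4.84%, for Ccl4 in endothelium. Ccr2 was found in 50% of NK cells at that depth. By level, 8 of 9 members were highest in phagocytes among the 10 named classes, and Ccr7 was highest in B cells. Ccr2 was 501 CPM in phagocytes and 320 CPM in NK cells. These classes held 1245889 and 3806523 UMIs of all genes, and shares of a gene's UMIs depend on such totals. The 20 immediate early and heat shock genes, known to respond quickly to stimulation and to tissue dissociation, summed to 19012 CPM in phagocytes, against 4391 CPM in NK cells, 17474 CPM in epithelium and 5709 CPM in undifferentiated stroma. Their part in the ligand levels was not tested.

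**Figure D1:**
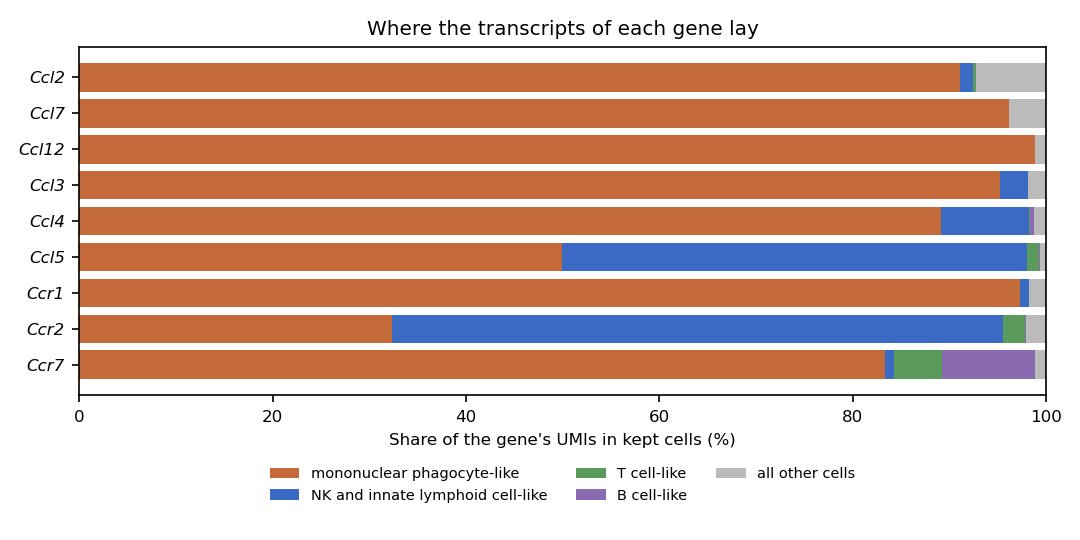
Share of each gene's UMIs in kept cells (horizontal axis, percent) held by each immune class and by all other cells together, 1 bar per gene. Phagocytes held over 89% of the UMIs of Ccl2, Ccl7, Ccl12, Ccl3, Ccl4 and Ccr1, while Ccl5 and Ccr2 were shared with NK cells.

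Ccl2, Ccl7 and Ccl12 are ligands of Ccr2, known for drawing monocytes into tissue, and all 3 centred on macrophages that express the complement genes C1qa, C1qb and C1qc. These C1q macrophage-like cells (51 cells, led by Pf4, C1qa, C1qc and Apoe, 11 of 12 macrophage markers in at least 10% of cells) held 63.6% of Ccl2, 80% of Ccl7 and 95.5% of Ccl12 UMIs. With a finer re-clustering, chosen after seeing the data, a C1q-rich sub-cluster of 39 cells held 89 of 426 Ccl2, 76 of 210 Ccl7 and 62 of 89 Ccl12 UMIs. Monocyte-like cells (85 cells, led by S100a9, S100a8, Thbs1, Chil3 and Ace, 11 of 11 monocyte markers in at least 10% of cells) had Ccl2 UMIs but no Ccl12. Of 10 neutrophil markers 2 were in at least 10% of these cells and 3 were at 0, Ly6g among them, and they summed to 1387 CPM, against 58.6 CPM in the Ear2-led phagocytes, the next immune group. S100a8 (486 CPM) and S100a9 (551 CPM) made up most of that sum and were each found in 4.71% of the cells, and the part of neutrophil transcripts in this group's levels was not tested. The next group with Ccl2 and Ccl7 was a dendritic-like sub-cluster led by Cd209a and Mgl2 (37 cells).

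Ccl2 stood at 732 CPM (647 to 824) in C1q macrophage-like cells, with a UMI in 26 of 51 cells. It was 355 CPM (282 to 441) in monocyte-like cells, 143 CPM (94.9 to 206) in Cd209a-led dendritic-like cells and 29.3 CPM in 59 unnamed phagocytes led by Ear2, all from 1 cell. The 3 upper levels did not overlap in their intervals, and without the highest cell of each they would be 619, 255 and 58.2 CPM. Below them neighbours in the order did not differ beyond counting error. Outside immune cells Ccl2 was 31.4 CPM in pericyte and smooth muscle-like cells, from 8 UMIs in 1 cell, and 20.4 CPM in mesothelium-like cells, where 9 of 10 UMIs were in 1 cell. Epithelium, taken as the background class, had 1.15 CPM and a UMI in 1.53% of cells, at a median depth of 6001 UMIs against 5571 in C1q macrophage-like cells, and whether these UMIs were free RNA was not tested.

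Ccl7 was 454 CPM (388 to 528) in C1q macrophage-like cells, with a UMI in 19 of 51 cells. Its 91.8 CPM in Cd209a-led cells and 70.0 CPM in monocyte-like cells came from 2 cells each, and without its highest cell the monocyte-like value would be 4.55 CPM. Ccl12 was 230 CPM (183 to 284) in C1q macrophage-like cells, from 85 UMIs in 17 cells, of which 25 were in 1 cell. No Ccl12 UMI was found in monocyte-like cells, where 3 counts would be 13.1 CPM, and 4 UMIs were found in all other groups together. Ccl12 was thus the member whose transcripts were most narrowly placed, and its level without the highest cell was still 171 CPM.

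Ccl3 and Ccl4, the macrophage inflammatory proteins 1 alpha and 1 beta, are ligands that attract monocytes and lymphocytes, and Ccl3 binds Ccr1. Ccl4 was the most abundant member, with 4161 of the 8917 member UMIs. Its level was 7048 CPM (6780 to 7324) in C1q macrophage-like cells, 1790 CPM (1621 to 1972) in monocyte-like cells and 1163 CPM (1017 to 1324) in Cd209a-led dendritic-like cells. It was 1097 CPM (969 to 1237) in a dendritic-like sub-cluster led by Itgae, with Clec9a (27 cells), though 57.3% of those UMIs were in 1 cell, and 416 CPM in Ear2-led phagocytes. A group of 9 cells led by Siglech and Spib, genes known from plasmacytoid dendritic cells, had 3307 CPM (2746 to 3948), from 5 cells, and is left without a type name.

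Among C1q macrophages the Ccl4 values were wide apart, with 17 of 51 cells at 0 and 5 cells holding over 50% of the 2610 UMIs. The highest cell held 321 UMIs, and the level without it was 6351 CPM. In monocyte-like cells 3 cells held over 50% of the 409 Ccl4 UMIs, and the level without the highest was 1443 CPM. The finer C1q-rich sub-cluster of 39 cells had 2136 CPM of Ccl4, 360 CPM of Ccl2, 392 CPM of Ccl3 and no Ccl5. With a coarser one of 89 cells, Ccl12 was 152 CPM. Immediate early and heat shock genes summed to 22679 CPM in C1q macrophages with Ccl4, against 7591 CPM in those without, at median depths of 6829.5 and 2543 UMIs. In monocyte-like cells the same sum was 30935 CPM with Ccl4, against 38282 CPM without. Their part in the Ccl4 level was not tested.

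**Figure D2:**
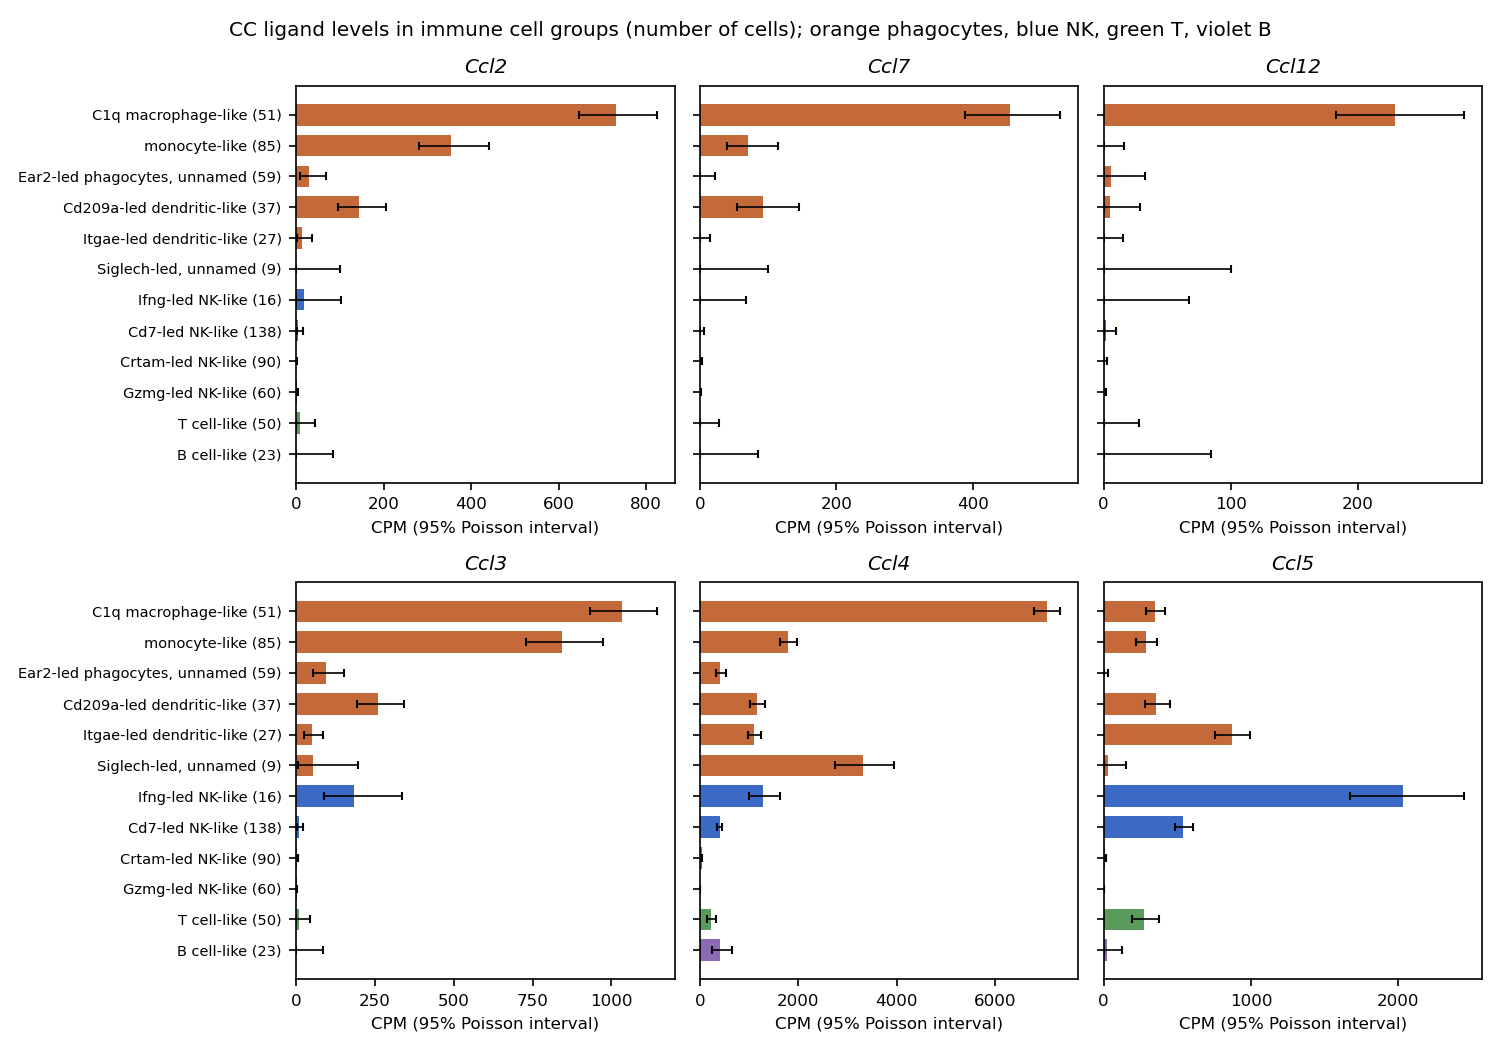
Levels of the 6 ligands (horizontal axes, CPM, each panel on its own scale) in the 12 immune sub-clusters, phagocytes above lymphoid cells. Bars are summed levels and lines are exact 95% Poisson intervals. Ccl7 and Ccl12 stand out in the top row, C1q macrophage-like cells, and Ccl5 is highest in Ifng-led NK-like cells.

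Ccl3 was far rarer than Ccl4 and more confined to phagocytes, which held 95.2% of its UMIs. It was 1034 CPM (933 to 1143) in C1q macrophage-like cells, 845 CPM (730 to 973) in monocyte-like cells and 260 CPM (194 to 342) in Cd209a-led cells. Without the highest cell of each these levels would be 910, 664 and 149 CPM. UMIs count captured 3′ ends, so no length enters the ratio of the 2 genes, which varied between groups. Ccl4 had 6.81 UMIs for each of Ccl3 in C1q macrophages (6.12 to 7.61) and 2.12 in monocyte-like cells (1.78 to 2.53). In the largest NK group, led by Cd7, the ratio was 46.4 (19.6 to 144), with 5 Ccl3 UMIs against 232 of Ccl4.

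The same cells tended to hold both transcripts. At 2000 UMIs a cell, Ccl3 was found in 65.4% of 26 C1q macrophages with Ccl4 (44.3 to 82.8%), against 7.69% of 13 without it (0.195 to 36.0%). In monocyte-like cells the shares were 64.3% of 14 cells with Ccl4 and 13.6% of 22 without. Ccl2 and Ccl12 did not show this beyond counting error, since Ccl2 was found in 27.3% of 11 C1q macrophages with Ccl12 (6.02 to 61.0%) and in 46.4% of 28 without it (27.5 to 66.1%).

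Ccl5, also called RANTES, a ligand of Ccr1 made by activated lymphocytes, was the 1 ligand shared evenly between phagocytes (49.9% of its UMIs) and NK cells (48.1%). By level it was 384 CPM in phagocytes (350 to 420), 121 CPM in NK cells (110 to 133) and 105 CPM in T cells (54.3 to 184). By cells, a UMI was found in 7.06% of 269 phagocytes (4.31 to 10.8%), against 19.9% of 311 NK cells (15.6 to 24.8%). At 2000 UMIs a cell, it was 9.40% of 149 phagocytes (5.23 to 15.3%) and 15.9% of 264 NK cells (11.7 to 20.9%), shares whose intervals overlap. None of 284 thinned epithelial cells had one, and 0.307% of 326 unthinned ones did.

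The phagocyte level of Ccl5 rested on 19 cells. In Itgae-led dendritic-like cells 184 of 212 UMIs were in 1 cell, and the level of 871 CPM would be 120 CPM without it. In monocyte-like cells 61 of 65 UMIs were in 1 cell, and 284 CPM would be 17.8 CPM without it. In C1q macrophages 61 of 129 UMIs were in 1 cell, and 348 CPM would be 191 CPM without it. The 25 NK and T cell markers summed to 230 CPM in the 2 Ccl5-positive Itgae-led cells, 221 CPM in the 4 monocyte-like cells and 20.8 CPM in the 6 C1q macrophages, against 6457 CPM in the 47 Ccl5-positive Cd7-led NK-like cells. Ncr1, Klrb1c, Klrd1, Cd3e and Trac together had no UMI in those 3 sets of phagocytes and 3 UMIs in the 5 Ccl5-positive Cd209a-led cells.

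The 4 NK-like sub-clusters, each with at least 13 of 15 NK markers in 10% of cells or more, had very different levels of Ccl5 and Ccl4. Ccl5 was 2032 CPM (1671 to 2447) in 16 NK-like cells led by Ifng, Il18rap and the heat shock genes Dnajb1 and Hspa1b, 541 CPM (482 to 604) in Cd7-led cells and 9.41 CPM in 90 cells led by Crtam and histone genes. It had no UMI in 60 cells led by the granzyme genes Gzmg, Gzmd, Gzmf and Gzme, where 3 counts of 1774170 UMIs would be 1.69 CPM. In the Ifng-led cells 65 of 111 Ccl5 UMIs were in 1 cell, and the level without it was 915 CPM. Ccl4 followed the same order, at 1281 CPM (999 to 1619) in the Ifng-led, 401 CPM (351 to 456) in the Cd7-led, 34.0 CPM in the Crtam-led and 2.82 CPM in the granzyme-led cells, and the Ifng-led level without its highest cell was 775 CPM. Immediate early and heat shock genes summed to 39131, 8185, 3656 and 2539 CPM in these 4 groups, taken in that order. The NK markers summed to 6223, 5848, 11531 and 27750 CPM, and the median depths were 2649, 3945.5, 14371 and 26338 UMIs. The part of these in the chemokine levels was not tested.

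In Cd7-led NK-like cells Ccl4 was found in 51.5% of 33 cells with Ccl5 (33.5 to 69.2%), against 12.1% of 66 without it (5.38 to 22.5%), at 2000 UMIs a cell. With Ccr2 the differences stayed within counting error: Ccl4 was found in 30.5% of 59 cells with Ccr2 (19.2 to 43.9%) and in 17.5% of 40 without it (7.34 to 32.8%), and Ccl5 was found in 32.2% of 59 cells with Ccr2 (20.6 to 45.6%) and in 35.0% of 40 without it (20.6 to 51.7%). Ccl5 UMIs in this group were spread over 47 of 138 cells, with at most 27 in 1 cell. T cell-like cells (50 in the re-clustering) had 274 CPM of Ccl5 (192 to 379), from 7 cells. They joined the 42 cells of the T cell class with 8 cells that the class values count as NK. The 42 cells held 12 of the 36 Ccl5 UMIs.

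**Figure D3:**
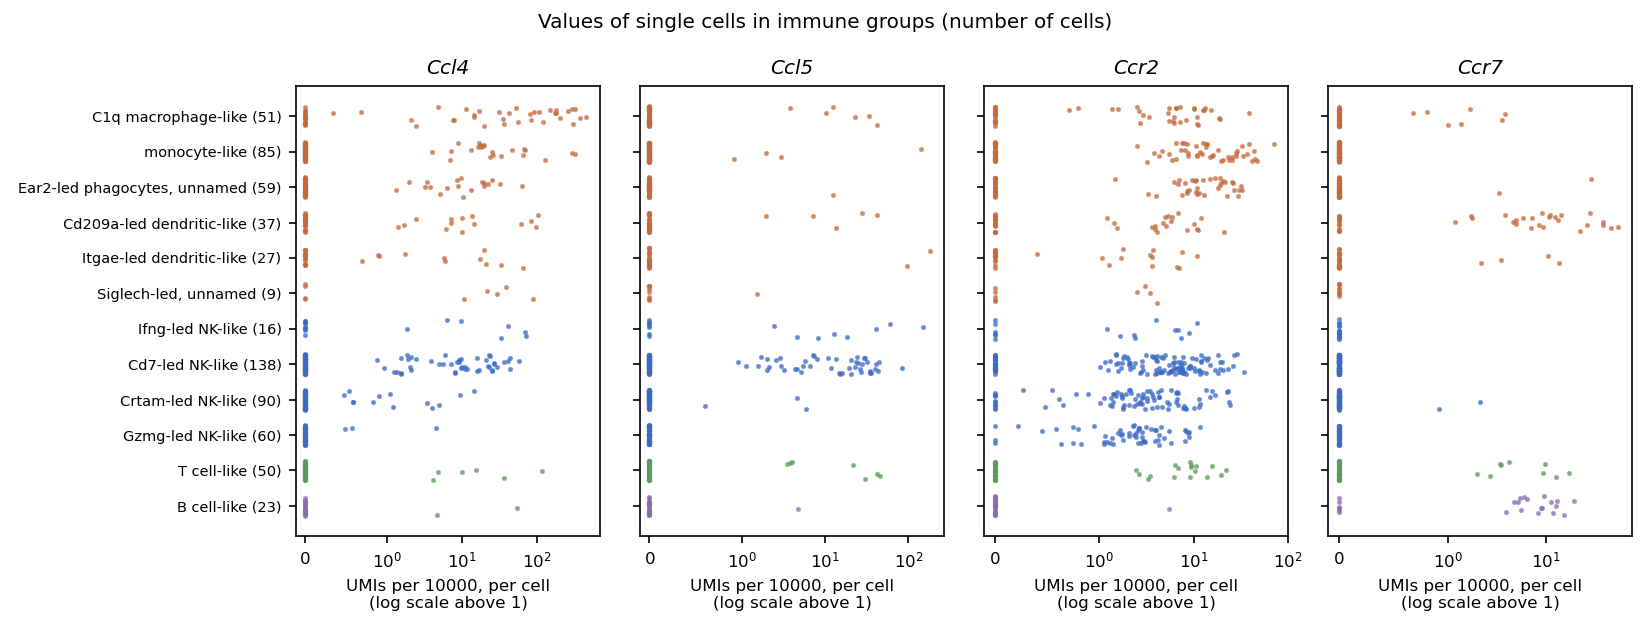
Values of single immune cells for Ccl4, Ccl5, Ccr2 and Ccr7 (horizontal axes, UMIs per 10000 UMIs of the cell, linear up to 1 and logarithmic above), 1 point per cell, by sub-cluster. Ccr2 is found in most NK-like cells at low values, whereas Ccl5 in phagocytes comes from a few cells with high values.

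Among receptors, Ccr2 was the most widely found member, with a UMI in 457 cells. NK cells held 63.2% of its 1927 UMIs and were 4.88-fold higher than all other cells (4.45 to 5.36), and phagocytes were 5.14-fold higher than all others (4.67 to 5.66). In NK cells 2 of 9 members, Ccr2 and Ccl5, were 2-fold or more higher than elsewhere, against 11.6% of genes, and the other 7 were 2-fold or more lower, against 34.2% of genes. Of single groups, monocyte-like cells had 985 CPM (860 to 1122) and Ear2-led phagocytes 886 CPM (750 to 1039), a pair that did not differ beyond counting error. Cd7-led NK-like cells followed at 515 CPM (458 to 577).

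From there Ccr2 levels lay close together. They were 362 CPM in Cd209a-led cells, 354 CPM in C1q macrophages, 335 CPM in T cell-like cells, 329 CPM in Ifng-led and 320 CPM in Crtam-led NK-like cells, and no neighbours among these 5 differed beyond counting error. Granzyme-led NK-like cells had the lowest NK level, at 258 CPM (235 to 282), with a UMI in 57 of 60 cells at a median depth of 26338 UMIs. Thinned to 2000 UMIs, Ccr2 was found in 40.0% of them, 48.9% of Crtam-led and 59.6% of Cd7-led cells, against 63.9% of 36 monocyte-like cells. B cell-like cells had 1 UMI, and epithelium 2.07 CPM.

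Ccr2 and its ligands were thus placed differently among phagocytes. In C1q macrophages, compared with monocyte-like cells, 4 of 8 members measured were 2-fold or more higher, against 14.0% of 2101 genes, and 1 was 2-fold or more lower, against 17.4% of genes. Ccl2 was 2.06-fold higher (1.60 to 2.68), Ccl4 3.94-fold (3.55 to 4.38), Ccl7 6.48-fold (3.87 to 11.6) and Ccl12 at least 17.5-fold, set against 3 counts over the monocyte-like group, where it had no UMI (the exact interval of that ratio starts at 13.9). Ccr2 stood at a ratio of 0.359 (0.287 to 0.448). Ccl3, Ccl5 and Ccr1 differed by less than 2-fold, at ratios of 1.22, 1.22 and 0.653, and the median log2 ratio of the 8 members was 0.67, against -0.02 for all genes compared. With the finer re-clustering the Ccl3 ratio turned, at 392 CPM in the C1q-rich and 602 CPM in the S100a8-rich sub-cluster, while Ccl2 was 360 and 115 CPM, Ccl4 2136 and 889 CPM, Ccl7 307 and 9.56 CPM, and Ccr2 433 and 918 CPM. The immediate early and heat shock sum was 19641 CPM in C1q macrophages, against 35786 CPM in monocyte-like cells.

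Ccr1 was a phagocyte gene in this library, with 110 of its 113 UMIs in that class. It was 97.2 CPM (68.1 to 135) in C1q macrophages, 149 CPM (103 to 208) in monocyte-like cells, 93.8 CPM (53.6 to 152) in Ear2-led phagocytes and 117 CPM (74.4 to 176) in Cd209a-led cells, 4 levels whose neighbours did not differ beyond counting error. The finer S100a8-rich sub-cluster had 268 CPM. Itgae-led dendritic-like cells had no Ccr1 UMI, and 3 counts there would be 12.3 CPM. NK cells had 1 UMI in 311 cells, and T and B cell-like cells none.

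**Figure D4:**
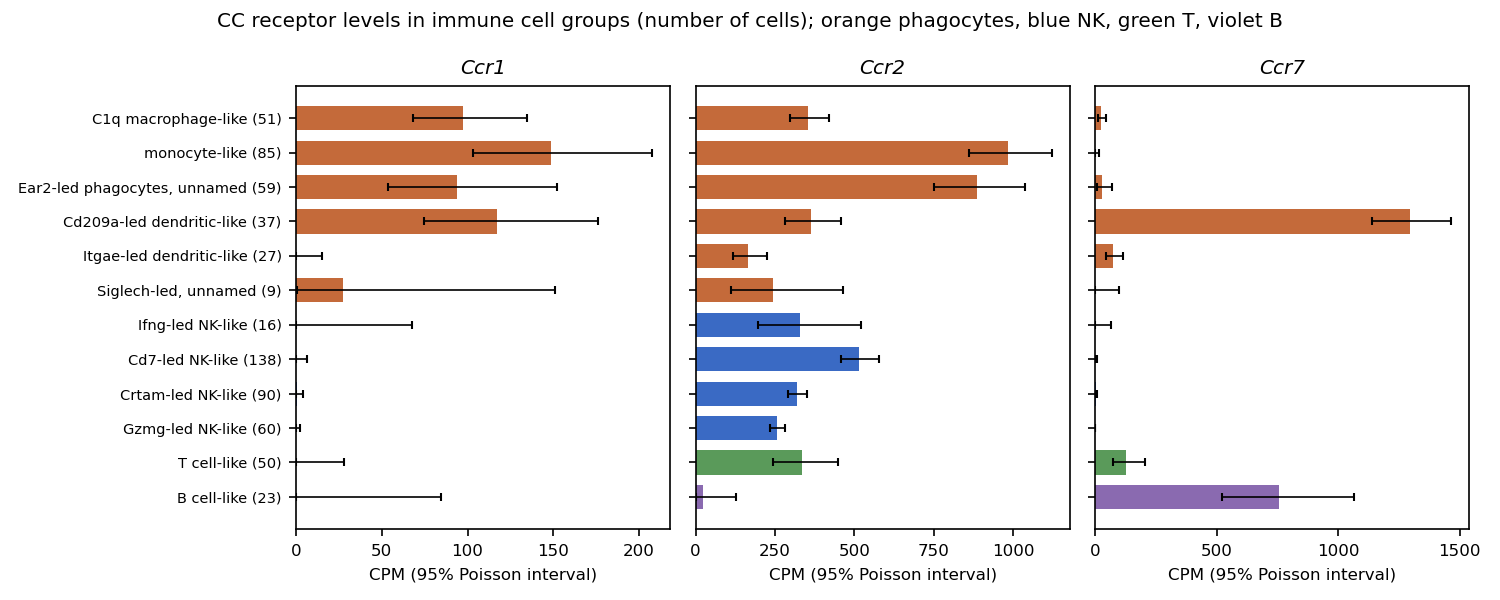
Levels of the 3 receptors (horizontal axes, CPM, each panel on its own scale) in the 12 immune sub-clusters. Bars are summed levels and lines are exact 95% Poisson intervals. Ccr1 is found mainly in 4 phagocyte groups, Ccr2 in all groups but B cells above 100 CPM, and Ccr7 mainly in Cd209a-led dendritic-like and B cell-like cells.

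Ccr7 was highest in Cd209a-led dendritic-like and B cell-like cells. The Cd209a-led cells did not differ in Ccr1 beyond counting error from monocyte-like cells, the highest group for Ccr1 (117 and 149 CPM). Cd209a-led dendritic-like cells had 1295 CPM (1141 to 1465), with a UMI in 25 of 37 cells, and B cell-like cells had 758 CPM (522 to 1065), with a UMI in 17 of 23 cells. T cell-like cells had 129 CPM (75.3 to 207) and Itgae-led dendritic-like cells 74.0 CPM (43.8 to 117), where 14 of 18 UMIs were in 1 cell and the level without it was 17.2 CPM. Monocyte-like, Cd7-led, Ifng-led and granzyme-led NK-like cells had no Ccr7 UMI. The Cd209a-led cells also held Ccr2 and Ccr1, and at 2000 UMIs a cell Ccr2 was found in 40.0% of 20 of them with Ccr7 (19.1 to 63.9%) and in 45.5% of 11 without it (16.7 to 76.6%). Of 10 markers of activated dendritic cells, 5 were in at least 10% of the Cd209a-led cells and 4 were at 0, Fscn1 and Cacnb3 among them. Their sum was 4626 CPM there, against 1884 CPM in B cell-like cells, the next group among the immune sub-clusters. Ccl22, a dendritic ligand of Ccr4, reached 801 CPM (680 to 936) in the same group.

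**Figure D5:**
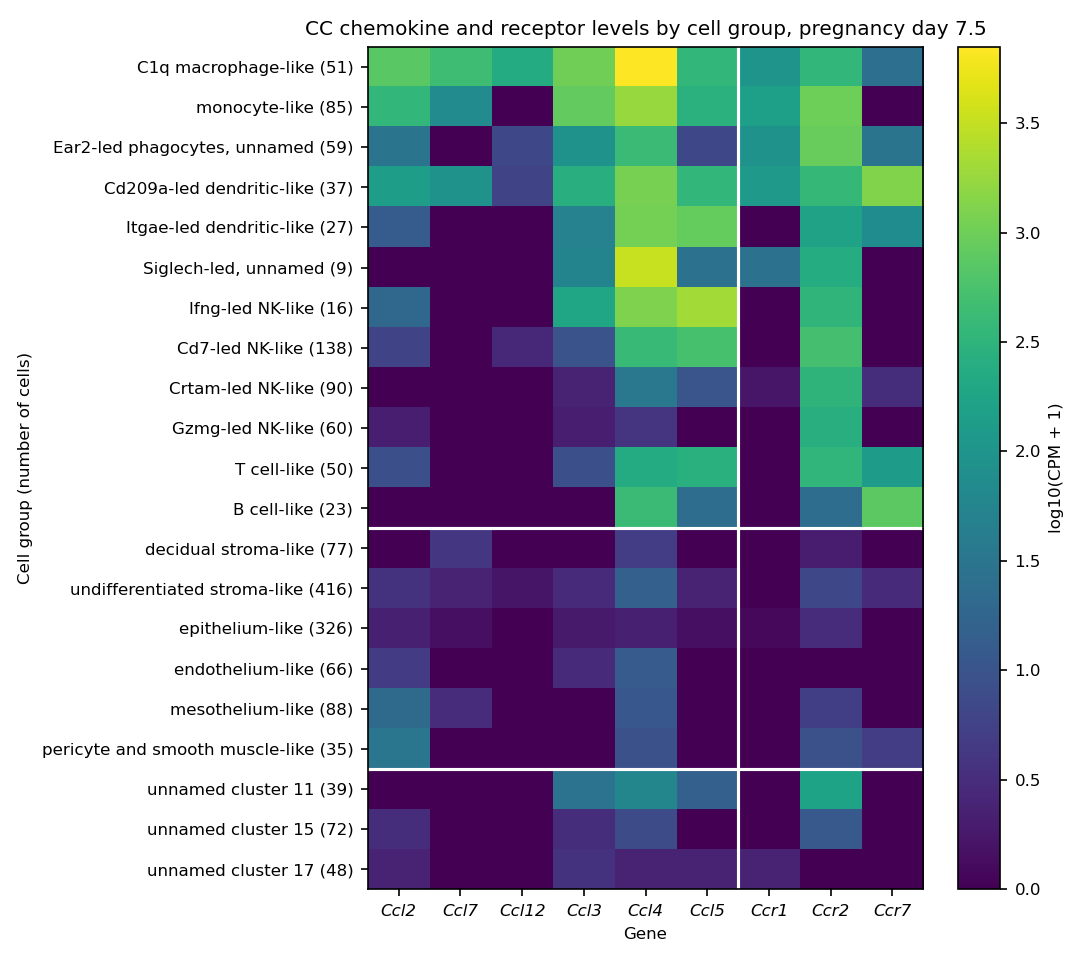
Levels of the 9 genes (columns) in the 21 cell groups (rows, number of cells in brackets), coloured by log10(CPM + 1). Immune sub-clusters fill the upper block, other named classes the middle and unnamed clusters the bottom, where levels are low except Ccr2, Ccl4 and Ccl3 in unnamed cluster 11.

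Outside immune cells the members were low, at most 5.42 CPM over the 1008 cells of the other named classes together. Decidual stroma, as drawn in the main clustering, had no UMI of Ccl2, Ccl3, Ccl5, Ccl12, Ccr1 and Ccr7 in 77 cells, where 3 cells with a UMI would be 3.90%. Its 3 Ccl7 UMIs were in 1 cell. Between decidual and undifferentiated stroma 0 of 9 members had the 50 UMIs needed for a comparison, in which 10.9% of 6971 genes were 2-fold or more higher. Ccl4 was found as single UMIs in 22 of 416 undifferentiated stromal cells (5.29%, 3.34 to 7.90%), against 3 of 326 epithelial cells (0.920%, 0.190 to 2.67%), where the median cell held 3304 and 6001 UMIs. At 2000 UMIs a cell, it was found in 3.87% of 310 stromal cells (2.02 to 6.66%) and in 0 of 284 epithelial cells. Unnamed cluster 11 (39 cells, median 1279 UMIs) had 172 CPM of Ccr2 from 12 UMIs and 57.4 CPM of Ccl4 from 4 UMIs. Its best-scoring marker set was that of NK cells, with 12 of 15 markers in at least 10% of cells and a sum of 9744 CPM. It was left unnamed because its depth was low and no NK marker was among its leading genes. Its values are therefore not counted as lying outside immune cells.

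The rest of the CC family was placed more widely. Of 15 other CC ligands 7 had at least 50 UMIs, and 3 of these (Ccl6, Ccl9 and Ccl22) were highest in phagocytes. Ccl6 and Ccl9 peaked in monocyte-like cells, at 486 CPM (400 to 585) and 385 CPM (309 to 475), where Ccl12 was not found. Ccl20, a ligand of Ccr6, was an epithelial gene at 39.4 CPM (33.7 to 45.7), and Ccl21a, a ligand of Ccr7 made by lymphatic endothelium, stood at 303 CPM (258 to 355) in endothelium-like cells, with UMIs in 8 of the kept cells. Ccl27a was highest in mesothelium (22.5 CPM) and, among named classes, Ccl25 in T cells (35.0 CPM, 4 UMIs). With the immune sub-clusters, Ccl25 was highest in Cd7-led NK-like cells, at 43.2 CPM (27.9 to 63.7) from 25 UMIs.

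Of the other CC receptors, Ccr9 stood at 1708 CPM in the 9 Siglech-led cells. Among related genes Cx3cr1 peaked in C1q macrophages (678 CPM), its ligand Cx3cl1 in undifferentiated stroma among named classes (46.3 CPM), Xcl1 in Ifng-led NK-like cells (1080 CPM) and its receptor Xcr1 in Itgae-led cells (321 CPM). Of the atypical and other related receptors listed, Ccrl2 was highest in phagocytes (323 CPM) and Ackr3 in decidual stroma (84.3 CPM), Gpr35 in phagocytes (85.1 CPM) and Cmklr1 in undifferentiated stroma (39.8 CPM).

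Genes that act below the receptors were shared more widely. Over all genes 11.2% were 2-fold or more higher and 33.1% lower in phagocytes, and 11.6% were higher and 34.2% lower in NK cells. Of 16 receptor signalling genes 11 were 2-fold or more higher in phagocytes than in all other cells, with a median log2 ratio of 1.49, and 12 were so in NK cells, with 1 lower. The 4 with most UMIs were Rgs2 and Rgs1, which shorten G protein signals, and the G protein subunits Gnai2 and Gnb2. Rgs2 was highest in undifferentiated stroma (1848 CPM), Rgs1 in NK cells (922 CPM), and Gnai2 (773 CPM) and Gnb2 (429 CPM) in endothelium. Of 16 NF-kappaB and inflammatory genes 12 were 2-fold or more higher in phagocytes, and 1 was so in NK cells, where 8 were lower. Zfp36 (1298 CPM), Nfkbiz (837 CPM) and Cebpb (779 CPM) were highest in phagocytes and Nfkbia in epithelium (999 CPM). Of 20 immediate early and heat shock genes 8 were 2-fold or more higher and 1 lower in phagocytes, and 0 were higher and 14 lower in NK cells. Among these, Fos (2174 CPM) and Klf6 (1702 CPM) were highest in epithelium, and Hspa1b (5996 CPM) and Hsp90aa1 (3790 CPM) in B cells.

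The genes most alike in pattern were taken from all other genes with at least 50 UMIs, by Pearson's r of log2(CPM + 5) over the 21 groups, which share 1 library and differ in depth. For Ccl12 they were Fcrls (r = 0.98), Pf4 and Trem2, and for Ccl7 Adgre1 (r = 0.96), Trem2 and C3ar1. For Ccl2 they were Adgre1 (r = 0.90), Clec4a1 and Il1b, for Ccl3 Ccrl2 (r = 0.86), Lilrb4a and Slc15a3, for Ccl4 Cxcr4 (r = 0.90), H3f3b and Snx20, and for Ccl5 Nfkbie (r = 0.83), Gna13 and Gpr65. For the receptors they were Ifi207 (r = 0.93), Ptafr and Ms4a6d for Ccr1, Myo1f (r = 0.95), Itgb2 and Runx3 for Ccr2, and H2-Ob (r = 0.92), Btla and H2-DMb2 for Ccr7. Between members, Ccl2 and Ccl7 stood at 0.88, Ccl3 and Ccl4 at 0.84 and Ccl4 and Ccl5 at 0.83.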

How the data were processed

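The deposited file of the authors holds raw UMI counts for 2775 barcodes. Per the file headers it was written by Cell Ranger 4.0.0, and per the submitters' processing notes the genome was mm10. How barcodes were called as cells before deposit is not stated in labels or headers. Barcodes were kept with at least 500 genes and at most 20% mitochondrial UMIs (1825), and scrublet in scanpy 1.11.5 marked 13 doublets (0.712%), which were removed. At that low rate doublets may remain. Clustering used 2000 variable genes, 30 components, 15 neighbours and Leiden resolution 1 with seed 0, and left out 44 chemokine genes. Clusters were named from 207 markers in 22 sets. The members and lists were chosen with earlier results of these data known. Named are all 9 members, of other lists the 4 genes with most UMIs, the CC genes with at least 50 UMIs (1 receptor and 1 ligand sequence are not reported here), and the 3 most alike genes. Naming of single sub-clusters by leading genes was made after their values were seen. Intervals are exact Poisson (CPM), Clopper-Pearson (shares) and conditional binomial (ratios). A gene was counted higher or lower at 2-fold with at least 50 UMIs. The ratio rule was tested on simulated data with counting error only. Those data did not hold the concentration of UMIs in single cells seen for several members. Python 3.11.15, scipy 1.17.1 and numpy 2.4.6 were used.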

Additional observations from a re-analysis of the deposited data

Results flagged for a closer look

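The 963 barcodes that the filters left out held 2226077 UMIs, and every member had UMIs there. Ccr2 stood at 67.4 CPM in the barcodes left out, against 132 CPM in kept cells, and Ccl4 at 62.0 CPM, against 285 CPM. The other ligands stood at 4.04 CPM (Ccl2), 8.98 CPM (Ccl3), 7.64 CPM (Ccl5), 3.14 CPM (Ccl7) and 1.80 CPM (Ccl12), against 29.1, 47.2, 65.5, 14.4 and 6.09 CPM in kept cells. Ccr1 stood at 2.25 CPM and Ccr7 at 6.74 CPM, against 7.73 and 23.5 CPM. All 9 were singled out because they are signal in barcodes that no comparison of the report used, although looser filters took some of them in. Ccr2 lost the largest share of its UMIs to the filters, 7.22%, and Ccl5 the smallest, 1.74%.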

How the results depend on the processing

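With 1 library no difference has a replicate check, and no replicate could be left out. No paired analysis was possible because 1 sample was analysed. Ranked by the share of cells with a UMI at 2000 UMIs a cell, a choice made after seeing the data, 3 members (Ccl5, Ccr2 and Ccr7) were highest in NK or T cells and 6 in phagocytes, and classes with fewer than 20 cells at that depth (B cells had 9) were left out. Other alternatives were run for filters, doublets, resolution, seed, genes used in clustering and mitochondrial UMIs. Under these, 8 members were highest in phagocytes, all 9 were 2-fold or more higher there and 2 were so in NK cells. The count in decidual stroma was 0. It cannot show that a result held, because in the main clustering no member had enough UMIs for the stromal comparison. Thinned to 2000 UMIs a cell, with B cells likewise left out, 9 were highest in phagocytes and 6 were 2-fold or more higher with enough UMIs. In the phagocyte class Ccl7 ranged from 104 to 188 CPM and Ccr1 from 57.0 to 91.5 CPM, against 162 and 88.3 CPM. The split of the stroma moved as well. Decidual and undifferentiated cells numbered 77 and 416 in the main clustering and 365 and 127 at resolution 2. With at most 10% mitochondrial UMIs they numbered 173 and 278. The stromal values given are those of the main clustering. Levels in sub-clusters moved most with the resolution of the re-clustering: in the C1q-rich sub-cluster Ccl4 ranged from 2136 to 7086 CPM, Ccl5 from 0 to 351 CPM and Ccr7 from 0 to 469 CPM. The cause was not tested. Depth limits what can be seen in shallow groups such as monocyte-like cells (median 1622 UMIs).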
